A study of Mus musculus with 12 samples.

Results

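The genes described here were grouped as limb position genes: the HoxA genes Hoxa9, Hoxa10 and Hoxa11, the zinc finger gene Zic1, the hindlimb gene Pitx1, and the homeobox genes Meis1 and Meis2. They were taken as every probe set that the platform annotation assigns to one of these 7 symbols, which gave 7 of the 12422 probe sets, 1 for each of the 7 among 8251 named genes. The data are 12 single-channel arrays of total RNA from hindlimb muscle at an age of 3 weeks. Animals labelled C57BL/10-SJL.Dysf (Dysf -/-, here Dysf_null), whose dysferlin allele comes from the SJL strain, were set against C57BL/10 animals (Dysf +/+, here Control). From each genotype a muscle labelled QF and one labelled TA were profiled, known from the study as the quadriceps femoris of the thigh and the tibialis anterior of the lower leg. The 4 groups held 3 arrays each, and whether each array stands for its own animal is not stated, so p-values reflect only array-to-array spread, some of which may be technical. The series title gives the question, whether dysferlin deficiency changes how a proximal and a distal muscle differ.

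Hox genes are transcription factors whose order along a chromosome cluster follows the order in which they act along the body and limb axes. In the limb bud, Hoxa9 and Hoxa10 are tied to the upper segment and Hoxa11 to the middle segment, which in the hindlimb is the lower leg, while Hoxa13 belongs to the foot. Meis1 and Meis2 mark the proximal limb bud, Pitx1 marks the hindlimb as against the forelimb, and Zic1 belongs to a family of zinc finger factors best known from the neural tube, the somites and the dorsal mesoderm. Connective tissue cells of limb muscle can carry Hox signal, and they share the whole-muscle RNA measured here with the fibres. Which cells carried the signal here was not tested.

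Intensities are given in the deposited linear unit and differences on the log2 scale after quantile normalization, with their SE (standard error) from limma. A floor was set at intensity 23.025 (log2 4.53), and a probe set was tested if it exceeded the floor on at least 3 arrays. Fold differences against a group that lay wholly at the floor are lower bounds, written as "at least". Adjusted p-values are limma's after Benjamini-Hochberg adjustment over the 10331 tested probe sets, and a probe set was called at an adjusted p under 0.05. Both QF arrays numbered 2 (1 Control, 1 Dysf_null) were set apart from the remaining arrays: their median correlation with the other arrays was 0.892 and 0.900, against 0.942 to 0.968 for the other 10. Their deposited medians of 106.1 and 107.1 compare with 72.8 to 84.3 elsewhere. No probe set carried the name Dysf, so the genotype labels were not checked against its transcript.

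Of the 7 genes, 5 were measured and tested: Hoxa11, Hoxa10, Hoxa9, Zic1 and Pitx1. Meis1 and Meis2 were each at the floor on 11 of 12 arrays and were not tested. None of the 7 lay at the floor on all 12 arrays, a state found for 1099 of 12422 probe sets (8.85%). Hoxa9 and Pitx1 exceeded the floor on 12 arrays, Hoxa10 on 11, and Hoxa11 and Zic1 on 6. Those 6 arrays were, for both genes, the TA arrays.

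**Figure D1:**
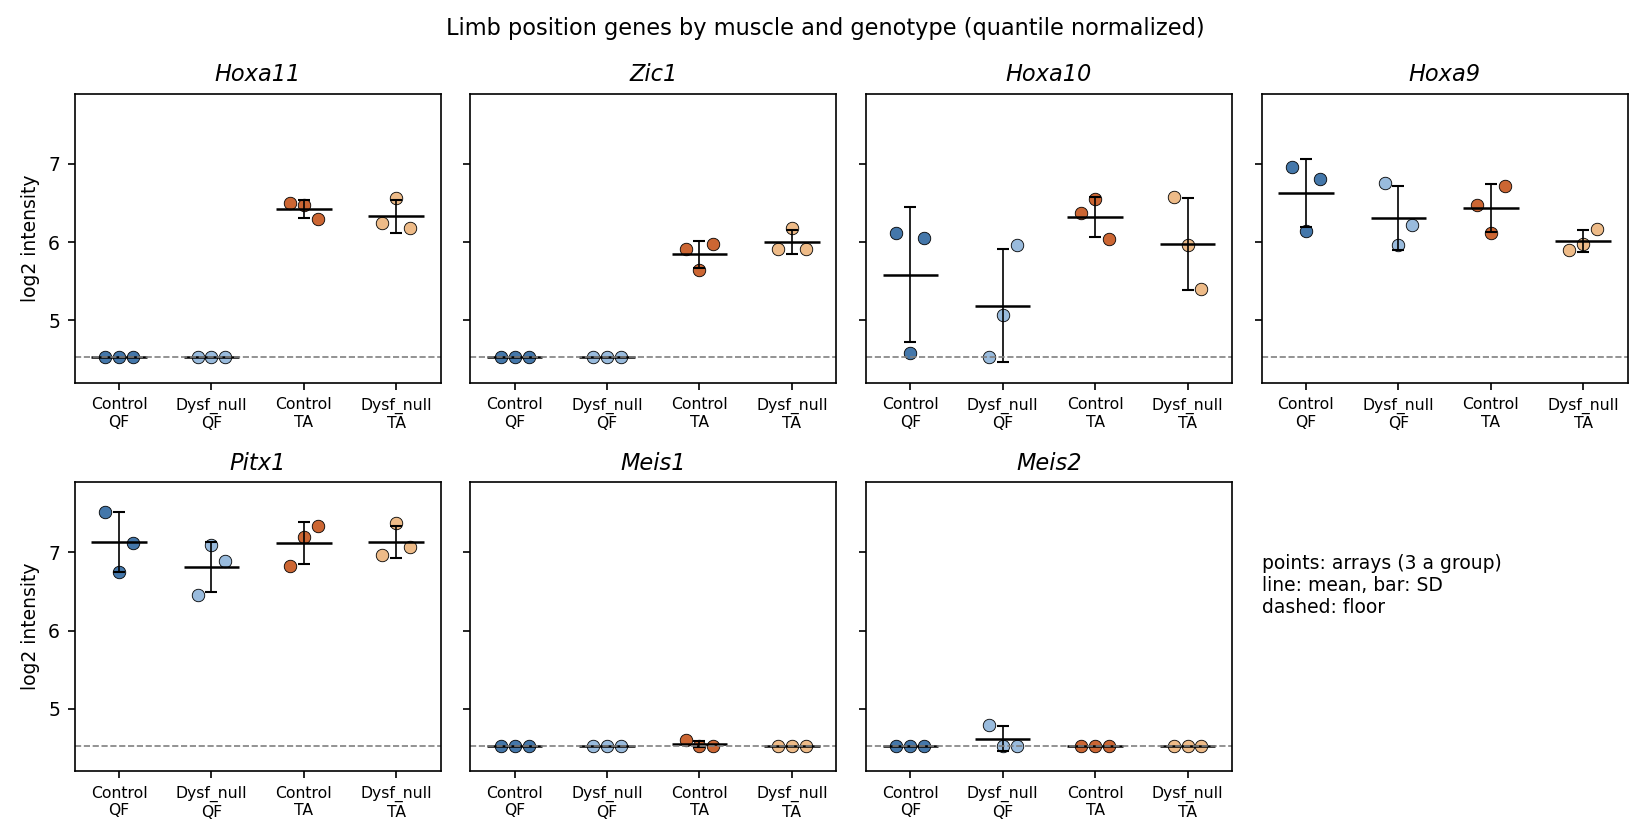
Quantile normalized log2 intensity of the 7 probe sets (y axis) on each of the 12 arrays, grouped by genotype and muscle (x axis), with points for arrays, a line for the group mean, a bar for the SD and a dashed line at the floor (log2 4.53). Hoxa11 and Zic1 sit on the floor on all 6 QF arrays and above it on all 6 TA arrays, Hoxa10, Hoxa9 and Pitx1 overlap between muscles, and Meis1 and Meis2 leave the floor on 1 array each.

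Hoxa11 (probe set 104021_at, chromosome 6) was above the floor in TA and at the floor in QF. The floor stands in for a detection call, and at the 10th percentile (intensity 7.66) 5 of 6 QF arrays exceeded it, against 2 of 6 for Zic1. Its deposited intensities were 82.7, 79.8 and 70.5 on Control_TA arrays 1, 2 and 3, and 77.6, 89.6 and 66.5 on the Dysf_null_TA arrays in the same order. On the Control_QF arrays they were 20.9, 18.9 and 5.3, and on the Dysf_null_QF arrays 11.1, 13.1 and 5.4. The muscles did not overlap in either genotype, with TA the higher, as was the case for 8.16% of all tested probe sets in Control and 5.71% in Dysf_null. The lowest TA value was 3.18-fold the highest QF value. After normalization the group means were 6.42 ± 0.11 in Control_TA and 6.33 ± 0.21 in Dysf_null_TA (log2, SD, n = 3 each), with both QF groups wholly at the floor.

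Zic1 (probe set 104169_at, chromosome 9) had the same distribution. Its intensities were 53.7, 42.9 and 55.6 in Control_TA and 62.6, 67.4 and 54.7 in Dysf_null_TA. In Control_QF they were 8.2, 9.1 and 5.3, and in Dysf_null_QF 11, 7.6 and 6.8. No TA array overlapped a QF array, as in 0.794% of all tested probe sets with TA the higher, and the lowest TA value was 3.9-fold the highest QF value. The normalized means were 5.84 ± 0.18 in Control_TA and 6.0 ± 0.16 in Dysf_null_TA (log2, SD, n = 3 each).

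Both genes were called higher in TA in each genotype. The Hoxa11 difference of TA minus QF was 1.90 ± 0.25 in Control (adjusted p = 0.00232) and 1.80 ± 0.25 in Dysf_null mice (0.00463). Over both genotypes it was 1.85 ± 0.18, at least 3.61-fold (adjusted p = 9.33e-05). The Zic1 difference was 1.32 ± 0.23 in Control (adjusted p = 0.0184), 1.48 ± 0.23 in Dysf_null (0.0134) and 1.40 ± 0.16 over both, at least 2.63-fold (0.000543). Thus 2 of the 7 members were called in each of the 3 comparisons, also with no filter on low values. In the main fit, with its filter, 0.736% of the 10331 tested probe sets were called in Control, 0.3% in Dysf_null and 1.11% over both genotypes. Hoxa11 and Zic1 passed the filter through the TA arrays alone, so their share among the 5 tested is not read further. In whole-muscle RNA, fewer cells of a type and less RNA per cell cannot be told apart. Without both QF arrays numbered 2 the differences over both genotypes were 1.85 (adjusted p = 0.00082) for Hoxa11 and 1.40 (0.00275) for Zic1.

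The call of Zic1 within a single genotype was close to the threshold. In Control its adjusted p was 0.0569 to 0.0911 without Control_QF 1, Control_QF 2, Control_TA 1 or Control_TA 3, each left out in turn. In Dysf_null it was 0.0504 to 0.0764 without any 1 of the 3 Dysf_null_QF arrays, Dysf_null_TA 2 or Dysf_null_TA 3. Over both genotypes it was called with any 1 of the 12 arrays left out, but not with a floor at the 40th percentile (adjusted p = 0.319), which lies at intensity 52.7, close to its TA values. Fitted on the arrays of 1 genotype alone, Hoxa11 passed barely in Control (adjusted p = 0.05 after rounding up) and not in Dysf_null (0.0866), and Zic1 passed in neither (0.139 and 0.135).

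Among 10331 tested probe sets, 2 (0.0194%) were at the floor on all 6 QF arrays and above it on all 6 TA arrays, and these were Hoxa11 and Zic1. This pattern was described after their values were seen, so the share is no support for either gene. It also depends on the floor. At the 10th percentile 5 of 6 QF arrays exceeded the floor for Hoxa11 and 2 of 6 for Zic1. At the 40th percentile 5 of 6 TA arrays exceeded it for Zic1. The size of both differences depends on the floor: over both genotypes Hoxa11 was 0.66, 1.85 and 3.00 higher in TA, and Zic1 0.22, 1.40 and 2.85, with the floor at the 40th, 25th and 10th percentile. QF arrays set to the floor also add no spread to the SE. Without floor or normalization, an exact permutation test of the deposited log2 intensities, in which arrays were relabelled within genotype (400 relabellings, two-sided), gave 7.13-fold for each gene with p = 0.005, the smallest value it can give. That p-value was fixed by the separation of the muscles given above and adds no support to it. The test, added after the data were seen, was run for all 7 genes without adjustment (Meis1 and Meis2, near background, are not reported), and intensities under 1 would have been set to 1. A fold of values this far below the floor rests on background signal.

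**Figure D2:**
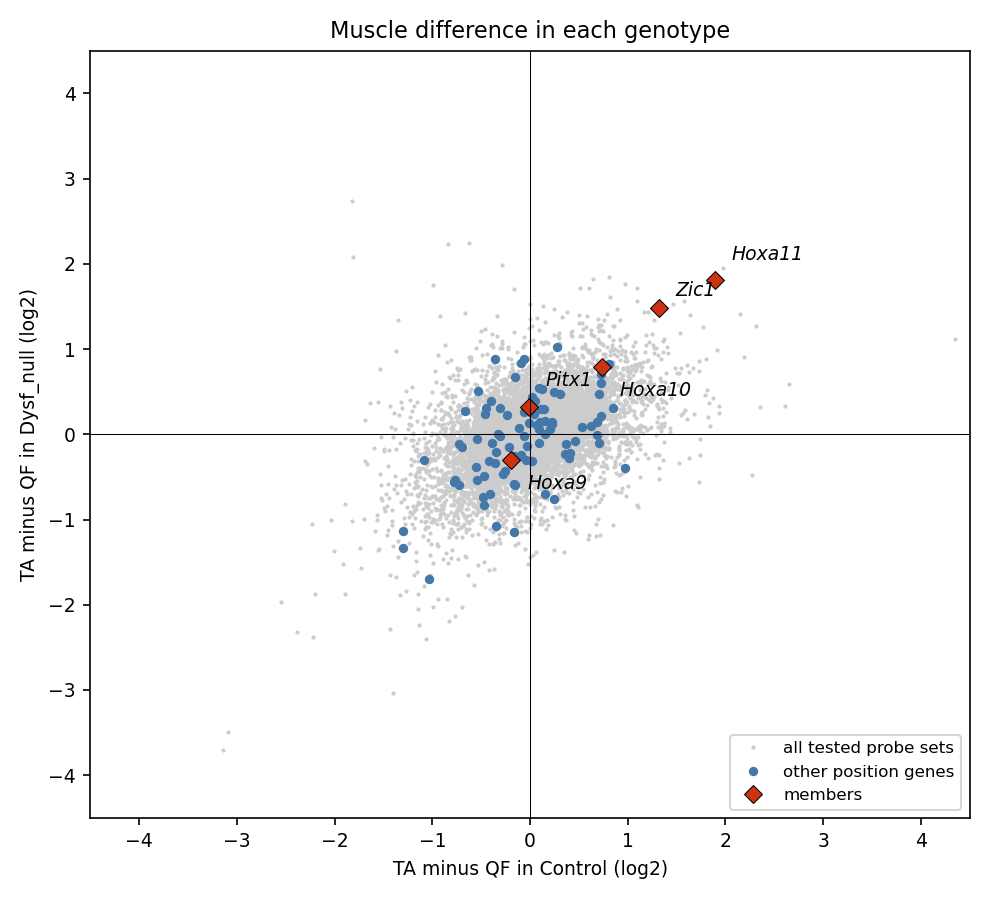
TA minus QF difference (log2) in Control on the x axis and in Dysf_null on the y axis for the tested probe sets, with the 5 tested members as red diamonds and 88 probe sets of other position genes as blue points. Hoxa11 lies at 1.90 and 1.80, Zic1 at 1.32 and 1.48, and the other position genes between -1.30 and 0.97 in Control and between -1.70 and 1.02 in Dysf_null.

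Lack of dysferlin left no called difference in any of the 5 tested members. In TA, the only muscle where both genes were measured, Dysf_null minus Control was -0.09 ± 0.25 for Hoxa11 (95% interval -0.63 to 0.45) and 0.16 ± 0.23 for Zic1 (-0.34 to 0.66). In QF both genotypes were at the floor for both genes, so no difference can be given there. For the same reason no change of their muscle difference with genotype can be given beyond the TA values. By limma, 0 of 5 members passed in QF, 0 in TA and 0 for the interaction (which for Hoxa11 and Zic1 only repeats TA), where 0.455%, 0.407% and 0.0678% of all tested probe sets were called. At an unadjusted p under 0.05 the counts were also 0 in each of the 3, against 6.77%, 4.82% and 3.05% of all tested probe sets, and 0 were called by limma without the intensity trend.

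The 250 bases upstream of the transcription start of Hoxa11 and Zic1 are printed with those of Hoxa10 and Hoxa9, the cluster neighbours that were detected in both muscles. They are RefSeq sequences of build GRCm38.p6, read 5′ to 3′ on the strand of the gene, and capitals mark motif matches on either strand. For Hoxa10, which has more than 1 annotated start, the most upstream one is shown.
Hoxa11, chr6:52245811-52246060, minus strand: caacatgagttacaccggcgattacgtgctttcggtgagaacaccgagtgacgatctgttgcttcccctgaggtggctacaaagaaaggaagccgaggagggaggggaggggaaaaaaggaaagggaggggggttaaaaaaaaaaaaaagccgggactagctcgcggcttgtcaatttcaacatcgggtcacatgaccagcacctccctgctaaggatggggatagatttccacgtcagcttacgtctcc
Zic1, chr9:91365769-91366018, minus strand: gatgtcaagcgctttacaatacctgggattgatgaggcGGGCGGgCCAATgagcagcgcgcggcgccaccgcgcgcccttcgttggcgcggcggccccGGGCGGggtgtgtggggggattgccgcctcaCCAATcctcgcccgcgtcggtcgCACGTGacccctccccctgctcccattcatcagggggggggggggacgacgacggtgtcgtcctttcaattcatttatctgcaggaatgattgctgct
Hoxa10, chr6:52240855-52241104, minus strand: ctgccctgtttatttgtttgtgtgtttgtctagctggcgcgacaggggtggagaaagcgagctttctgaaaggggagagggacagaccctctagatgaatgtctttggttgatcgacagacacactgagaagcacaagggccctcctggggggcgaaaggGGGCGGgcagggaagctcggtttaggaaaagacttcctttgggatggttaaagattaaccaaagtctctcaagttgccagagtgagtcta
Hoxa9, chr6:52227371-52227620, minus strand: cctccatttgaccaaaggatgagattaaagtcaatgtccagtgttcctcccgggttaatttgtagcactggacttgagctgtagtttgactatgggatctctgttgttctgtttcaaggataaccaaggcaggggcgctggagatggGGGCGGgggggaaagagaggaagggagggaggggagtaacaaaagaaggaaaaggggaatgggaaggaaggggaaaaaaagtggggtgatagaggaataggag

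Motifs searched were the CCAAT box (CCAAT), the GC box (GGGCGG), the E-box (CACGTG), the TATA box (TATAAA), a Meis core (TGACAG) and a Pitx core (TAATCC), on both strands. The Zic1 window held 2 CCAAT boxes, 2 GC boxes and 1 E-box, none overlapping another, and the Hoxa11 window held no match. The printed windows of Hoxa10 and Hoxa9 held 1 GC box each, and the window of the other Hoxa10 start, chr6:52234940-52235189 on the minus strand, held 1 CCAAT box and 1 TATA box and no GC box, with 20 CpG and 59.2% GC. Of 32851 windows of this length, 33.8% held a CCAAT box, 32.7% a GC box and 6.02% an E-box, and 12.4%, 15.9% and 6.25% held the TATA box, the Meis core and the Pitx core. With 27 CpG dinucleotides and 66.0% GC the Zic1 window was the richest of the 4 printed in both, against 13 and 52.0% for Hoxa11, 7 and 51.6% for the printed Hoxa10 window, and 3 and 49.6% for Hoxa9, where the median over all windows was 6 and 52.4%. As the Hoxa11 window held no match, the pair with the same distribution over muscles could share none of these motifs, and nothing is read from this.

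Hoxa10 (92970_at, chromosome 6), next to Hoxa11 in the cluster, was present in both muscles. Its intensities were 75, 84.4 and 58.7 in Control_TA and 97.2, 56.7 and 36.6 in Dysf_null_TA. In Control_QF they were 70.7, 34.8 and 57.4, and in Dysf_null_QF 24.3, 48.4 and 54.7. The muscles overlapped: Dysf_null_TA 3 lay below 4 of the QF arrays, and Dysf_null_QF 1 was at the floor after normalization. The difference over both genotypes was 0.77 ± 0.35 (95% interval 0.02 to 1.52, adjusted p = 0.376), with 0.74 ± 0.49 in Control and 0.79 ± 0.49 in Dysf_null. Without both QF arrays numbered 2 it was 0.49 ± 0.33 (adjusted p = 0.729). The genotype differences were -0.40 ± 0.49 in QF and -0.35 ± 0.49 in TA (adjusted p = 1 in both).

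Hoxa9 (92745_at, chromosome 6), the next gene in that direction, was above the floor on every array. Its intensities were 122, 92.7 and 100.8 in Control_QF and 107.5, 84.2 and 67.0 in Dysf_null_QF. In Control_TA they were 81.8, 61.4 and 96.7, and in Dysf_null_TA 62.5, 57.4 and 65.8. On this scale the TA arrays of Dysf_null mice lay below every QF array, by a narrow margin (65.8 against 67.0), and those of Control overlapped them. After normalization both genotypes overlapped, where 10.2% of all tested probe sets did not overlap in Dysf_null, in either direction. TA minus QF was -0.25 ± 0.24 over both genotypes (95% interval -0.76 to 0.27, adjusted p = 0.658). On the deposited intensities without normalization it was -0.43, and limma did not call it there (SE 0.225, adjusted p = 0.416). The exact permutation test within genotype, added after the data were seen, gave p = 0.015, not adjusted for the 7 genes. Dysf_null minus Control was -0.32 ± 0.34 in QF and -0.42 ± 0.34 in TA (-1.15 to 0.31).

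Pitx1 (92920_at, chromosome 13), the hindlimb identity gene that is off in the forelimb bud, was above the floor on all 12 arrays. Its intensities were 179.2, 134.6 and 130.1 in Control_QF and 87.7, 164.1 and 110.9 in Dysf_null_QF. In Control_TA they were 104.5, 137.8 and 152.4, and in Dysf_null_TA 126.3, 162.4 and 128.3. The 4 groups overlapped. TA minus QF was -0.01 ± 0.29 in Control, 0.32 ± 0.29 in Dysf_null and 0.16 ± 0.20 over both (95% interval -0.29 to 0.60, adjusted p = 0.753). Dysf_null minus Control was -0.32 ± 0.29 in QF (adjusted p = 0.988) and 0.02 ± 0.29 in TA.

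**Figure D3:**
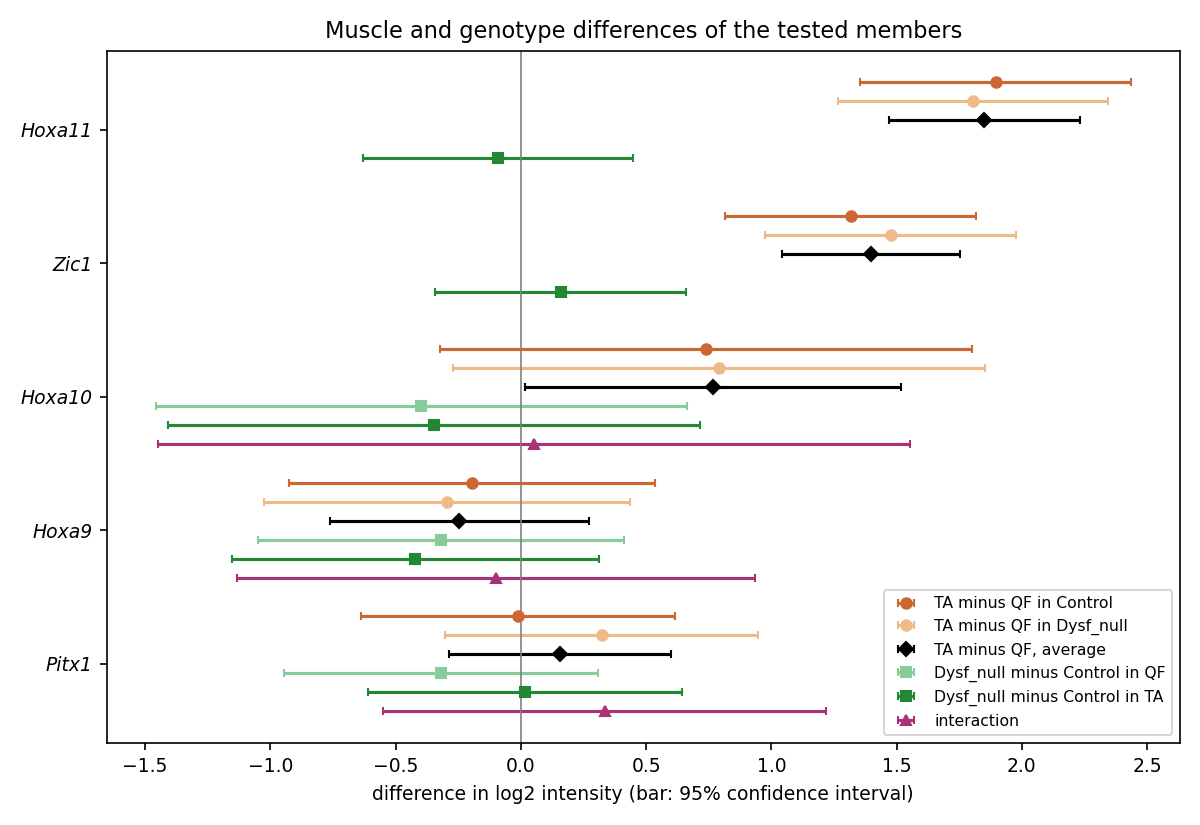
Differences in log2 intensity (x axis) of the 5 tested members (y axis) for the comparisons of muscle, of genotype and for the interaction, with points for the estimate and bars for the 95% confidence interval. In Control the muscle interval of Hoxa11 begins at 1.36 and that of Zic1 at 0.82, and every genotype and interaction interval drawn includes 0. The QF genotype difference and the interaction of Hoxa11 and Zic1 are left out because both QF groups were at the floor.

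The proximal genes Meis1 and Meis2 were near background. Meis1 (98790_s_at, chromosome 11, a probe set whose name marks it as able to match several transcripts) had intensities of 4.5 to 16.0 over the 6 QF arrays and 2.1 to 20.6 over the 6 TA arrays. Only Control_TA 1 rose above the floor, at log2 4.60. Meis2 (97988_at, chromosome 2) ranged from 5.5 to 29.8 in QF and from 3.5 to 13.4 in TA, and only Dysf_null_QF 1 exceeded the floor, at log2 4.80. With a floor at the 40th percentile both were at the floor on all 12 arrays, and with one at the 10th percentile Meis1 exceeded it on 4 arrays and Meis2 on 7. Differences between the muscles at these intensities are between background signals and are not given.

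Along the HoxA cluster, Hoxa11 was the one gene called between muscles. Toward the other end from Hoxa10 and Hoxa9, none of the differences over both genotypes was called. They were -0.65 for Hoxa7, -0.01 for Hoxa6, -0.17 for Hoxa5, -0.17 for Hoxa3 and -0.34 for Hoxa2. The 2 tested probe sets of Hoxa4 had -0.09 and -0.16. Several of these were often at the floor. Hoxa7 and the Hoxa4 probe set at -0.09 exceeded it on 6 of 12 arrays, Hoxa6 on 7 and Hoxa3 on 5. Hoxa5, Hoxa2 and the other tested Hoxa4 probe set exceeded it on all 12. Further probe sets of Hoxa4 and Hoxa6 were at the floor on all 12 arrays and were not tested. Hoxa13, the gene beyond Hoxa11 that patterns the foot, had a difference of -0.61 (adjusted p = 0.494) and exceeded the floor on 4 QF and 2 TA arrays. Its intensities were 7.4 to 105.9 in QF and 11.9 to 45.4 in TA, which overlapped. Hoxa11os, an antisense transcript next to Hoxa11 that was named here after its values were seen, had 1 probe set above the floor on all 12 arrays (161670_f_at, 0.19 ± 0.38, adjusted p = 0.837). Its other probe set (93873_s_at) was at the floor on all 6 QF arrays and above it on 3 of 6 TA arrays (0.51 ± 0.27, adjusted p = 0.444). The genes of the cluster are named for their place in it, with their values seen, and levels were not compared between probe sets.

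**Figure D4:**
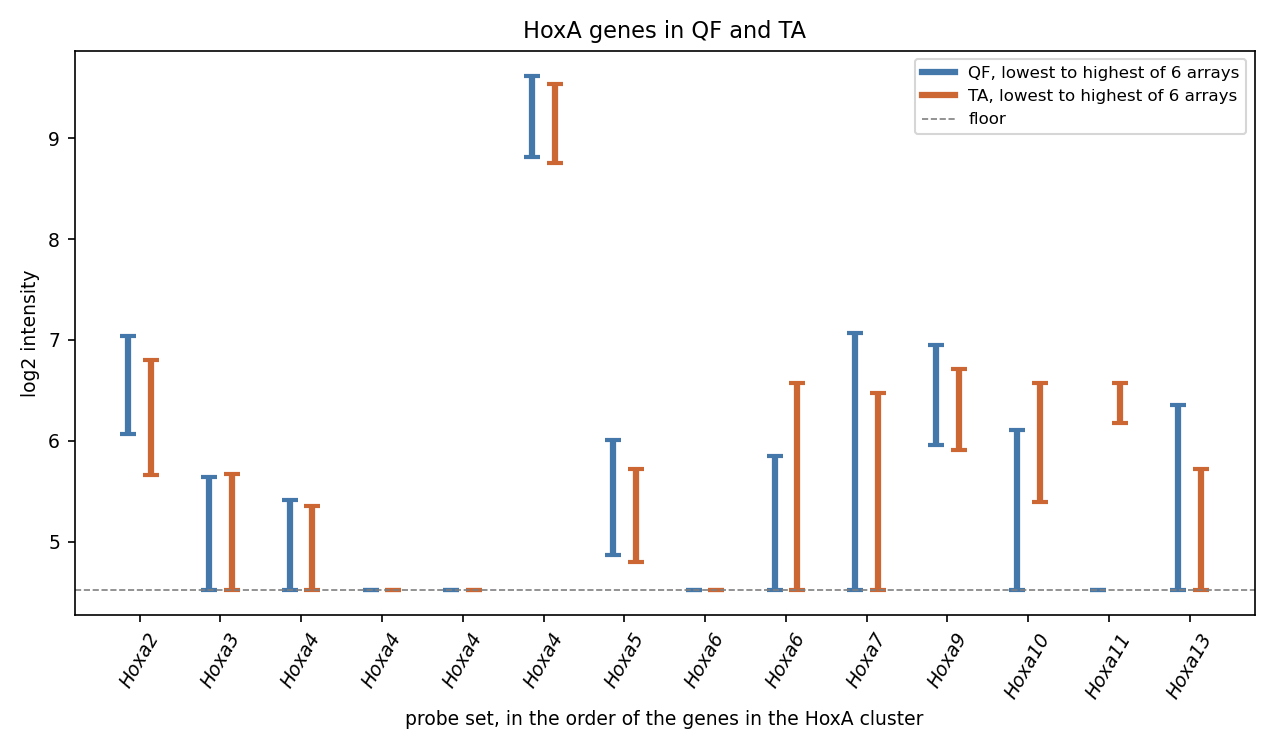
Lowest to highest log2 intensity over the 6 QF arrays (blue) and the 6 TA arrays (orange) for each HoxA probe set, in the order of the genes along the cluster (x axis), with the floor as a dashed line. The ranges of both muscles overlap for every probe set drawn except Hoxa11. Its QF arrays are all at the floor and its TA arrays lie between 6.18 and 6.57. Where all 12 arrays are at the floor, as for some probe sets of Hoxa4 and Hoxa6, the overlap compares no measured signal. Probe sets of one gene are drawn side by side and levels are not comparable between them.

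Other genes of limb and muscle position gave no call. A list of 121 such genes (other Hox genes, Hox cofactors and Irx genes, Zic and Gli genes, limb patterning genes and muscle lineage factors) had 89 genes and 115 probe sets on the array, of which 18 were at the floor on all 12 arrays and 88 were tested. By limma, 0 of the 88 were called over both genotypes, 0 without the intensity trend, and 10 (11.4%) had an unadjusted p under 0.05, against 13% of all tested probe sets. Their median difference was -0.01, against 0.01 over all tested. In either genotype alone 0 were called as well, and 5 each (5.68%) had an unadjusted p under 0.05, against 9.86% of all tested in Control and 5.72% in Dysf_null. For genotype 0 were called in QF and in TA, with 5 (5.68%) and 3 (3.41%) at an unadjusted p under 0.05, and for the interaction 0, with 1 (1.14%), against 6.77%, 4.82% and 3.05% of all tested. The genotype fit holds no block, although same-numbered arrays of both genotypes deviated together. With the replicate number as a block within muscle, 1 of 88 was called in QF, the muscle factor Myf6 (-0.50 ± 0.09, adjusted p = 0.0193), and 1 in TA, a probe set of Six4 (-1.0 ± 0.17, 0.023), where 273 and 159 of all tested probe sets were called. Myf6 was named after its values were seen, and 0 of the 5 members passed with this block. By group, the median was -0.19 for 25 Hox probe sets, 6 of them positive, 0.32 for 9 of cofactors and Irx genes, -0.18 for 4 of the Zic and Gli genes, -0.01 for 32 of limb patterning genes and 0.22 for 18 of muscle lineage factors.

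Of Zic1's own family, Zic2 had 1 probe set above the floor on all 12 arrays (98844_at), with TA minus QF of -0.09 in Control and 0.83 in Dysf_null and neither called, and another at the floor on all 12. Zic4, the genomic neighbour of Zic1, exceeded the floor on 1 of 12 arrays and was not tested. Both were named as relatives of Zic1, with their values seen. The smallest p-values of the list over both genotypes came from Mef2c, a muscle transcription factor (104591_g_at, 0.81 ± 0.24, adjusted p = 0.16), and Hoxc9, a HoxC gene (92891_f_at, -0.65 ± 0.19, 0.168). Six2, a homeobox gene of connective tissue, followed with -1.37 ± 0.44 (0.217). Adjusted p-values of 0.25 to 0.342 were found for a probe set of the T-box gene Tbx2 (-0.66 ± 0.23) and the muscle differentiation factor Myog (-0.47 ± 0.17). They were also found for another of the 4 tested Mef2c probe sets (0.66 ± 0.28) and a probe set of Six4 (0.72 ± 0.30). The other tested probe sets of Tbx2 had -1.32 ± 0.65 and -0.11 ± 0.47. Those of Six4 had 0.31 ± 0.24 and 0.06 ± 0.24, and none of these was called. The Six4 probe set called by genotype in TA with the block was the one at 0.31. The remaining Mef2c probe sets had smaller differences, 0.33 ± 0.18 (adjusted p = 0.459) and 0.19 ± 0.26 (0.764). Meis3, a relative of Meis1 and Meis2, had intensities of 38.4, 191.5 and 26.8 in Control_QF, 35.6, 185.8 and 28.7 in Dysf_null_QF, 11.5, 10.0 and 7.1 in Control_TA, and 11.9, 26.8 and 20.0 in Dysf_null_TA. Its high values were on both QF arrays numbered 2, and its difference of -1.22 ± 0.45 was not called (adjusted p = 0.279).

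The patterns most like those of the members were compared by Pearson's r over the 12 arrays, as a description of arrays that share the muscle difference. For Hoxa11 the most alike were Zic1 (0.98), Sdhd, a subunit of succinate dehydrogenase (0.97), and Mb, myoglobin (0.94), and the most unlike was the fat hormone gene Adipoq (-0.98). For Zic1 they were Hoxa11, Sdhd (0.96) and Mb (0.94), with Cidea, a lipid droplet gene of brown fat, the most unlike (-0.98). The r of Hoxa11 with Zic1 rests on the step between muscles and is raised by the floor, which gives both genes 1 common value on all 6 QF arrays. For Hoxa10 the most alike were Zfp106 (0.91) and Cd37 (0.91), for Hoxa9 Mynn (0.93) and Rc3h2 (0.90), and for Pitx1 Ackr1 (0.82) and Pip5k1a (0.79). Neither Hoxa10, Hoxa9 nor Pitx1 had Hoxa11 or Zic1 among its 3 most alike.

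Markers of other tissues were set beside the muscle difference over both genotypes. Of white fat markers, 4 of 7 probe sets were called lower in TA (median -0.92), Adipoq by -1.29 ± 0.08 (adjusted p = 1.24e-06), and their summed intensity was 3223.1 to 3383.3 in Control_QF and 3359.7 to 3591.7 in Dysf_null_QF against 1467.5 to 1694.1 in Control_TA and 1506.8 to 1926.9 in Dysf_null_TA. Of 8 tested brown fat probe sets, 2 were called lower, those of Cidea (-3.42 ± 0.19, adjusted p = 9.77e-07) and Ucp1 (-2.22, adjusted p = 2.65e-05), whose other probe set was not called (-1.05, 0.246), and Elovl3 was at the floor throughout. Fibroblast and tendon markers had 1 of 18 called higher in TA, a probe set of Col3a1 (0.73), with a median of 0.07. The difference of that probe set was 1.355 in Control and 0.11 in Dysf_null. The other Col3a1 probe sets were lower in TA and not called (-0.53 and -0.11). The summed intensity of the fibroblast and tendon markers was 21352 to 26775 in Control_QF and 26904 to 32859 in Control_TA. It was 32745 to 39041 in Dysf_null_QF and 35302 to 41534 in Dysf_null_TA. This sum overlapped between muscles in Dysf_null mice and not in Control. Of 21 muscle fibre probe sets 1 was called higher and 1 lower, and 0 of 13 satellite cell, 0 of 6 bone, cartilage and skin, 0 of 7 nerve and 0 of 3 neuron probe sets were called over both genotypes by limma. In Control alone, 1 of the 3 tested neuron probe sets was called higher in TA (Tubb3, 1.02 ± 0.17, adjusted p = 0.0105). Its name, like that of the Meis1 probe set, marks it as able to match several transcripts. The other Tubb3 probe set was not called in Control (1.39, adjusted p = 0.212). The summed intensity of the neuron list was 335.9 to 535.4 in Control_QF against 743.4 to 792.5 in Control_TA. In Dysf_null this sum was 555.9 to 616.2 in QF and 490.8 to 565.8 in TA, and the Tubb3 probe set called in Control had a difference of -0.09. Of the endothelial and mural probe sets 1 of 13 was called lower, and of the macrophage ones 1 of 7 higher. The neuronal genes Snap25 and Syt1 and the keratins Krt14 and Krt15 were at the floor on all arrays. Gad1, also of the neuron list, exceeded the floor on 1 array, so the sum of that list is not read as a neuron signal. The part of fat or connective tissue in the differences of Hoxa11 and Zic1 was not tested.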

How the data were processed

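The deposited table gave a linear intensity for each probe set on each array. A mean trimmed by 2% at either end was 200.1 to 200.2 on every array, so the authors' values had been scaled to one target, judged from the values. Their software and summarisation are not known from the sources used here. After removal of 66 control probe sets from 12488, and because array medians differed 1.47-fold (limit 1.25), the intensities were quantile normalized, floored at the 25th percentile and log2 transformed. Probe sets were named from the platform annotation. Of the 12422 left, 10833 had 1 symbol, 396 several and 1193 none, and all 7 member symbols matched a RefSeq gene table (GRCm38.p6).

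Group means were fitted with limma 3.58.1 (R 4.3.3) to all 12 arrays (8 residual degrees of freedom, intensity trend, two-sided). The fit was also run on simulated data, but its outcome is not given here and is not used as support for any call. The members, the position gene and marker lists and the motifs were chosen with earlier results of these data known, and each list is described by counts. All member probe sets are named, with list genes of low p-value. Arrays give no depth, and their number limits the precision.

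Same-numbered arrays of the 2 genotypes of 1 muscle deviated together (r of 0.11 to 0.71 over 6 pairs), and those of the 2 muscles of 1 genotype did not (-0.14 to 0.12). Alternatives changed the normalization, floor, filter, trend, array weights, number block and arrays used. Promoter windows came from RefSeq, with no entry used for Pitx1. Figures used Python 3.11.15 with matplotlib 3.10.9.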

Additional observations from a re-analysis of the deposited data

How the results depend on the processing

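The count of 2 members called in TA against QF over both genotypes was 2 under all but 1 of the alternatives and fell to 1, Hoxa11, with a floor at the 40th percentile. Within Control the count was 0 with that floor, and 1 (Hoxa11) on the deposited intensities without quantile normalization, with a replicate number block within genotype, and with only the arrays compared. Within Dysf_null it was 0 with that floor, with that block and with only the arrays compared. With 1 array left out it ranged from 1 to 2 in each genotype, and a group left with 2 arrays is assumed to vary like the others. The genotype and interaction counts were 0 throughout, also with the replicate block within muscle, so the pairing changed no call of a member. The Hoxa11 interaction, at the main floor a repeat of the TA difference, turned from -0.09 to 0.32 with a floor at the 10th percentile (adjusted p = 1) and that of Zic1 from 0.16 to -0.10 (adjusted p = 1). Of the QF arrays, 5 of 6 then exceeded the floor for Hoxa11 and 2 of 6 for Zic1, and the cause was not tested. Over all probe sets, the calls of TA against QF over both genotypes ranged from 49 to 221 around 115, in Control from 28 to 147 around 76, in Dysf_null from 14 to 52 around 31, in the genotype comparisons from 0 to 273 around 47 in QF and from 14 to 192 around 42 in TA, and for the interaction from 4 to 32 around 7. Among the other position genes, a probe set of Mef2c passed over both genotypes with a replicate block over all groups, and Six2 without Control_QF 3. With the block within muscle, Myf6 passed in QF and a probe set of Six4 in TA by genotype. Signal near background limits Hoxa11 and Zic1 in QF and Meis1 and Meis2 everywhere: those values are bounds. The exact permutation test was added after the data were seen.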

Other observations

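The converse of the Hoxa11 and Zic1 distribution, all 6 TA arrays at the floor and all 6 QF arrays above it, was found for 2 of 10331 tested probe sets (0.0194%). These were Il18, an interleukin gene (TA minus QF of -0.88, a bound because TA lay at the floor, limma adjusted p = 0.0246), and 1 probe set of Ucp1, the uncoupling protein of brown fat (99507_at, TA minus QF of -2.22, adjusted p = 2.65e-05). Both were named after their values were seen.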
